A study of Mus musculus with 12 samples.

Results

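The glucocorticoid receptor gene Nr3c1 and 9 genes that glucocorticoids are widely known to induce, Fkbp5, Sgk1, Tsc22d3, Per1, Klf9, Klf15, Zbtb16, Fam107a and Pdk4, were followed in sensory neurons of the tongue. They were taken by gene symbol from 22609 symbols, and all 10 were among the 13835 genes with enough reads to be tested. Glucocorticoids (corticosterone in mice) cross the cell membrane and bind the receptor, which is held ready in the cytoplasm by HSP90 and its co-chaperones. The bound receptor enters the nucleus and binds short palindromic stretches of DNA, the glucocorticoid response elements, near genes such as Per1 and Fkbp5. Sensory neurons, glia and vascular cells of the ganglion all carry the receptor, and the same target genes can also respond to other signals.

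The cells came from trigeminal ganglia (TG) of athymic nude mice aged 6 to 8 weeks. Tongue neurons had been labeled by wheat germ agglutinin (WGA) given in the tongue on day 13, and WGA-positive cells were sorted from ganglia collected on day 15. There were 3 samples in each of 4 groups: normal male (MN), male with tongue tumor (MT), normal female (FN) and female with tongue tumor (FT). Tumors grew from 350000 cells of HSC3, a human line of oral squamous cell carcinoma. A normal sample pooled 4 TGs of 2 mice, and a tumor sample pooled the 4 TGs on the tumor side of 4 mice. By the methods of the study the normal mice received human normal oral keratinocytes, whereas by the labels they received no cells, and which of these holds was not settled. The p-values below measure the spread between such pools. The host lacks T cells, and the data hold 1 tumor line and 1 time point.

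Levels are given in CPM, the reads of a gene scaled to a common total of reads counted on genes, of which each library had 4592891 to 8922011. A group of 3 libraries stood apart. FN replicate 2 had 56.0% of its reads mapped to several places, FT replicate 2 had 68.4% and FT replicate 3 had 52.6%, whereas this share was between 43.0% and 45.5% for the remaining 9, with which the 3 also correlated less. Results are therefore given with all 12 libraries and with the 9, in which FT is FT replicate 1 alone and its spread is taken from the other groups. The 16 sensory neuron markers, led by Calca and Tubb3, summed to 16167 to 27820 CPM, and none of them was at 0 in any library. Markers of other cell types were present as well. The 7 satellite glia markers, led by Apoe, summed to 4001 to 5363 CPM in the male libraries and 6828 to 18463 CPM in the female libraries. The 10 endothelial markers summed to 228 CPM in FT replicate 2 and to 454 to 1409 CPM in the other libraries. In such pooled cells, fewer cells of a type and less RNA per cell cannot be told apart.

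The sequence that the receptor recognizes was looked for near the start of each gene, because direct targets often hold it nearby. Within 5000 bases on each side of the start, a loose palindrome, GNACA and TGTNC with any 3 bases between them, was found for 3 of the 10 genes, against 15.7% of 13655 tested genes with a position, and the strict form, GAACA and TGTTC with any 3 bases between them, for 1 of 10, against 1.24%. Each palindrome reads the same on both strands, and each strict match is also a loose match. Per1 held 2 strict matches, both within introns, Fkbp5 held 4 loose matches and Klf15 held 1. A few of these stretches are shown 5′ to 3′ on the strand of the gene, from the mm9 genome, with the match in capitals and 20 bases on each side.
Per1, chr11:68910559-68910611, plus strand: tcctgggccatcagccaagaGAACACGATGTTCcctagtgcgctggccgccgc
Per1, chr11:68912899-68912951, plus strand: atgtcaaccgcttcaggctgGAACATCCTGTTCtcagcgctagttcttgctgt
Klf15, chr6:90414632-90414684, plus strand: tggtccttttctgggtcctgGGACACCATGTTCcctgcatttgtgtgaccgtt
Fkbp5, chr17:28650828-28650880, minus strand: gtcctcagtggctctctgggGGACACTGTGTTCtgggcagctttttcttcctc
Fkbp5, chr17:28655105-28655157, minus strand: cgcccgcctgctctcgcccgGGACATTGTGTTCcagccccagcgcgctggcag
The Per1 matches lay 1866 and 4206 bases after the start of the gene, the Klf15 match 2088 bases after it in an intron, and the Fkbp5 matches shown at 3615 in an intron and at -662, upstream. A match describes the letters only, and binding was not measured. For the other 7 genes these letters were not found in this window. The window was set at the outermost annotated start of each gene. Stretches near any start further inside a long gene, such as Sgk1 or Tsc22d3, could fall outside it.

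Per exon length, which allows genes to be compared, Tsc22d3 was the most abundant, with a mean of 68.0 RPKM over the 12 libraries. Klf9 followed at 32.3 RPKM, Sgk1 at 16 RPKM, Per1 at 10.2 RPKM and Fkbp5 at 7.46 RPKM. Klf15 at 5.62 RPKM, Fam107a at 4.15 RPKM, Nr3c1 at 3.75 RPKM and Pdk4 at 3.60 RPKM lay close together, and Zbtb16 was lowest at 1.40 RPKM. The receptor transcript itself was thus among the less abundant of the 10.

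**Figure D1:**
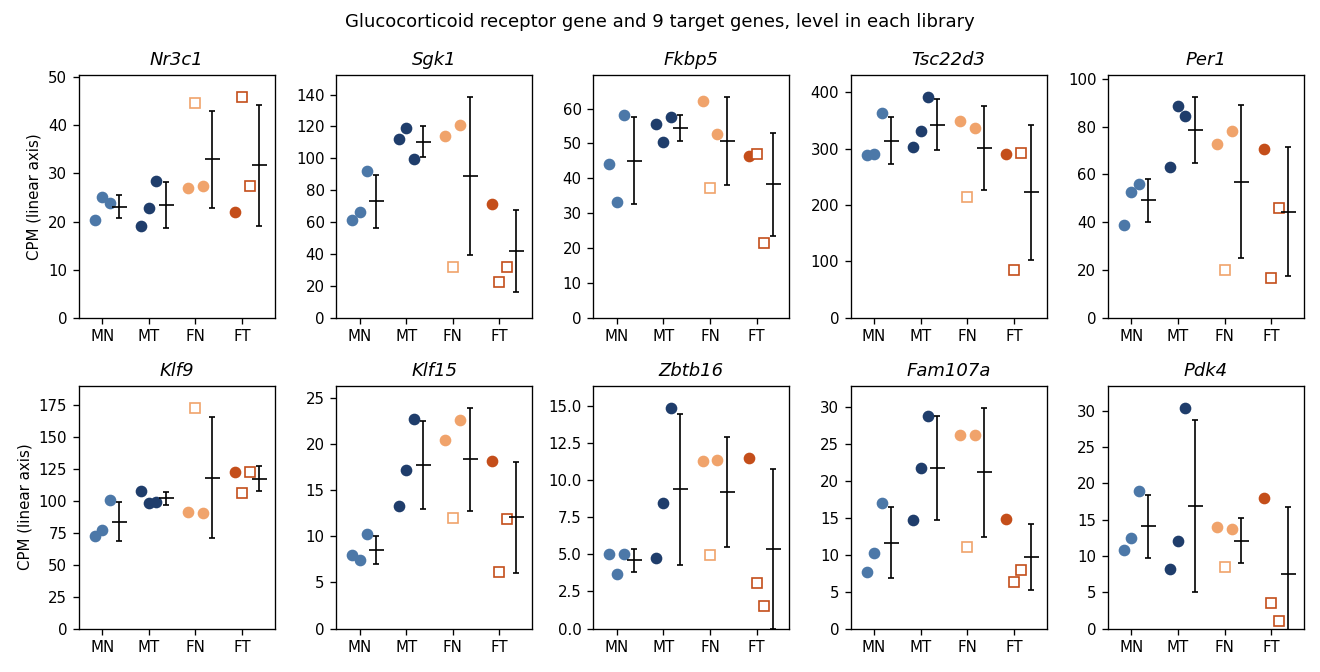
Level of each gene in CPM (linear axis from 0) in the 3 libraries of MN, MT, FN and FT, with replicates 1 to 3 from left to right. Open squares are FN replicate 2, FT replicate 2 and FT replicate 3, and the black bars are the mean and SD of 3 libraries, cut at 0; Sgk1, Per1 and Klf15 lie higher in each MT library than in any MN library.

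Nr3c1, the receptor gene on chromosome 18, was at 20.4, 25.1 and 23.8 CPM in MN, at 19.1, 22.8 and 28.4 CPM in MT, at 26.9, 44.6 and 27.4 CPM in FN and at 21.9, 45.9 and 27.3 CPM in FT. The libraries of tumor and normal mice overlapped in both sexes, and the highest values were those of FN replicate 2 and FT replicate 2. The tumor effect on Nr3c1, as a log2 fold change, was 0.03 in males (95% interval -0.89 to 0.95) and 0.03 in females (-0.89 to 0.95), so a change of nearly 2-fold either way is not excluded. The interval was narrower in the 9 libraries, with a log2 fold change of 0.03 (SE 0.16) in males. Each FN library was higher than each MN library, but the log2 fold change of 0.67 (SE 0.43) did not pass the test at an unadjusted p under 0.05, and it was 0.18 (SE 0.17) in the 9 libraries.

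Fkbp5 (chr17:28536040-28654469, minus strand), a co-chaperone that lowers the affinity of the receptor for its hormone, was at 44.0, 33.1 and 58.2 CPM in MN, at 55.5, 50.4 and 57.5 CPM in MT, at 62.3, 37.2 and 52.6 CPM in FN and at 46.4, 47.0 and 21.3 CPM in FT. The MT libraries lay within the range of MN, and FT overlapped FN, with FT replicate 3 lowest of all. Its log2 fold change was 0.29 (SE 0.37) in males and -0.28 (SE 0.37) in females, and neither passed that threshold. A small nuclear RNA gene is annotated within the span of Fkbp5 on the other strand, and the strand setting of the read counting was not given in the sources used here.

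Sgk1 (chr10:21601990-21719709, plus strand), a kinase that regulates ion channels and transporters, was at 61.2, 66.2 and 92.0 CPM in MN, at 112, 119 and 99.8 CPM in MT, at 114, 31.7 and 121 CPM in FN and at 71.3, 22.2 and 32.1 CPM in FT. The MT libraries all lay above those of MN, and the FT libraries all below those of MT. FN and FT overlapped because FN replicate 2 was low. Tsc22d3 (chrX:137074067-137135198, minus strand) encodes the leucine zipper protein GILZ, which mediates part of the anti-inflammatory action of glucocorticoids. It was at 289, 291 and 363 CPM in MN, at 303, 332 and 392 CPM in MT, at 350, 215 and 337 CPM in FN and at 290, 84.5 and 293 CPM in FT. The groups overlapped within each sex. FT replicate 2 was the lowest library by far, and the FT libraries were all below those of MT.

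Among the regulators of transcription, Per1 (chr11:68908719-68923462, plus strand), a repressor of the circadian clock, was at 38.8, 52.8 and 55.9 CPM in MN, at 63.0, 88.8 and 84.3 CPM in MT, at 72.8, 20 and 78.2 CPM in FN and at 70.5, 16.5 and 46.0 CPM in FT. It was higher in each MT library than in any MN library, and FN replicate 2 and FT replicate 2 were lower than all others. Klf9 (chr19:23215716-23241401, plus strand), a zinc finger factor whose span also holds the annotated microRNA gene Mir1192 on the same strand, was at 72.6, 77.0 and 101 CPM in MN, at 108, 98.6 and 99.3 CPM in MT, at 91.5, 173 and 90.3 CPM in FN and at 123, 106 and 123 CPM in FT. For Klf9 it was FN replicate 2 that stood highest, so this library was not low for every target.

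Klf15 (chr6:90412570-90425232, plus strand), a zinc finger factor known for its control of amino acid and glucose metabolism, was at 8.01, 7.40 and 10.3 CPM in MN, at 13.3, 17.2 and 22.8 CPM in MT, at 20.5, 12.0 and 22.6 CPM in FN and at 18.2, 6.10 and 11.9 CPM in FT. All 3 MT libraries and all 3 FN libraries lay above all 3 MN libraries. Zbtb16 (chr9:48462416-48644050, minus strand), the zinc finger factor PLZF, was at 5.06, 3.7 and 5.05 CPM in MN, at 4.78, 8.47 and 14.9 CPM in MT, at 11.3, 4.96 and 11.4 CPM in FN and at 11.5, 3.05 and 1.53 CPM in FT. MN and MT overlapped because MT replicate 1 was as low as MN.

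Fam107a (chr14:9128788-9150537, minus strand) encodes an actin-associated protein that is raised by stress in the brain. It was at 7.73, 10.2 and 17.0 CPM in MN, at 14.7, 21.8 and 28.8 CPM in MT, at 26.3, 11.1 and 26.2 CPM in FN and at 14.8, 6.31 and 7.95 CPM in FT. MN and MT overlapped, as did FN and FT. Pdk4 (chr6:5433351-5446309, minus strand) encodes a kinase that shuts off pyruvate dehydrogenase in fasting, and was at 10.8, 12.4 and 19.0 CPM in MN, at 8.18, 12.1 and 30.4 CPM in MT, at 14.0, 8.48 and 13.7 CPM in FN and at 18, 3.48 and 0.976 CPM in FT. Over the 12 libraries Pdk4 had the widest range of the 10, with a highest value 31.1 times its lowest. Over the 9 this ratio was 3.72, and that of Zbtb16 was the widest at 4.04.

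The first comparison asked what the tumor changed in neurons of males. The study had already listed Sgk1, Per1 and Fam107a as raised in MT over MN, and Sgk1 and Fam107a as lowered in FT against FN. Its RPKM values of Sgk1 and Fam107a in FN and FT lay closer to means without FN replicate 2 and FT replicate 2 than to means of all 3 libraries. Whether its female calls used the same libraries as here was not settled. The study also reported response to glucocorticoid stimulus, with Sgk1 and Fam107a, and circadian regulation, with Per1, among processes of genes raised in males. Counts of these members in the same data are not independent of these earlier reports. Klf15 and Fam107a rose in MT over MN at an unadjusted p under 0.05, which was 2 of the 10 genes, against 0.426% of all genes tested in either direction and 0.347% upward. Klf15 rose from 8.58 ± 1.55 to 17.8 ± 4.78 CPM (SD, n = 3 each). Its log2 fold change was 1.06 (SE 0.38, 95% interval 0.26 to 1.87). Fam107a went from 11.6 ± 4.79 to 21.8 ± 7.03 CPM, with a log2 fold change of 0.91 (SE 0.42, 95% interval 0.02 to 1.80). Neither passed adjustment by edgeR over all genes tested (adjusted p of 1.00 for both), and no gene of the whole table did. Both also met the criteria of the study, which add a fold over 1.5 and a mean RPKM over 5 in a group and which 0.154% of genes met.

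All 10 genes had a log2 fold change above 0 in MT over MN, with a median of 0.46, whereas 51.2% of all genes tested did, with a median of 0.01. Limma-voom with quality weights put 2 of the 10 below 0, as did leaving out MT replicate 3, and 1 was below 0 without MN replicate 1. Sgk1, Per1 and Klf15 did not overlap between MT and MN, which was 3 of 10 genes with all MT libraries higher, against 5.80% of all genes tested. Sgk1 had a log2 fold change of 0.62 (SE 0.43) and Per1 one of 0.69 (SE 0.45), and neither passed the test in the fit of 12 libraries, in which all 4 groups share 1 estimate of the spread.

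The 9 libraries leave out female libraries only, so the fold changes in males were nearly the same by design, and their errors were smaller. There, 6 of the 10 genes rose at an unadjusted p under 0.05, against 3.99% of all genes tested. In order of their p these were Klf15 (log2 fold change 1.06, SE 0.21), Per1 (0.69, SE 0.15), Sgk1 (0.61, SE 0.15), Fam107a (0.91, SE 0.28), Zbtb16 (1.04, SE 0.34) and Klf9 (0.31, SE 0.13). The same 6 genes passed that threshold when MN and MT were fitted alone, against 6.92% of all genes tested in either direction. These fits hold the same male libraries and differ mainly in the estimate of the spread, so they are no independent repeat. No member passed adjustment by edgeR in the 9 libraries (lowest adjusted p 0.153), whereas Klf15, Per1 and Sgk1 had an adjusted p under 0.05 by limma-voom over the 12 libraries, against 0.34% of all genes tested.

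The male calls rested in part on single libraries. Without MT replicate 3, which was highest of the MT libraries for 7 of the 10 genes, the log2 fold change of Klf15 was 0.87 and that of Fam107a 0.69, and neither passed an unadjusted p of 0.05. The same held without MN replicate 2, with Klf15 at 0.97 and Fam107a at 0.83. Fam107a also missed the threshold without MN replicate 1 (0.69), MT replicate 2 (0.90), FN replicate 1 (0.91) or FN replicate 3 (0.91). MT replicate 3 differed in markers of other cell types as well. The 12 macrophage markers, led by Lyz2, summed to 266 CPM in it, against 21.5 and 27.1 CPM in the other MT libraries and 26.6 to 39.4 CPM in MN, and its endothelial markers were the highest of MT, at 1261 CPM. By staining, the study reported Csf1R and C1qa, which are among the macrophage markers, in WGA-positive neurons of females. The CPM of this list can therefore not be assigned to macrophages alone. The part of other cell types in the result was not tested.

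**Figure D2:**
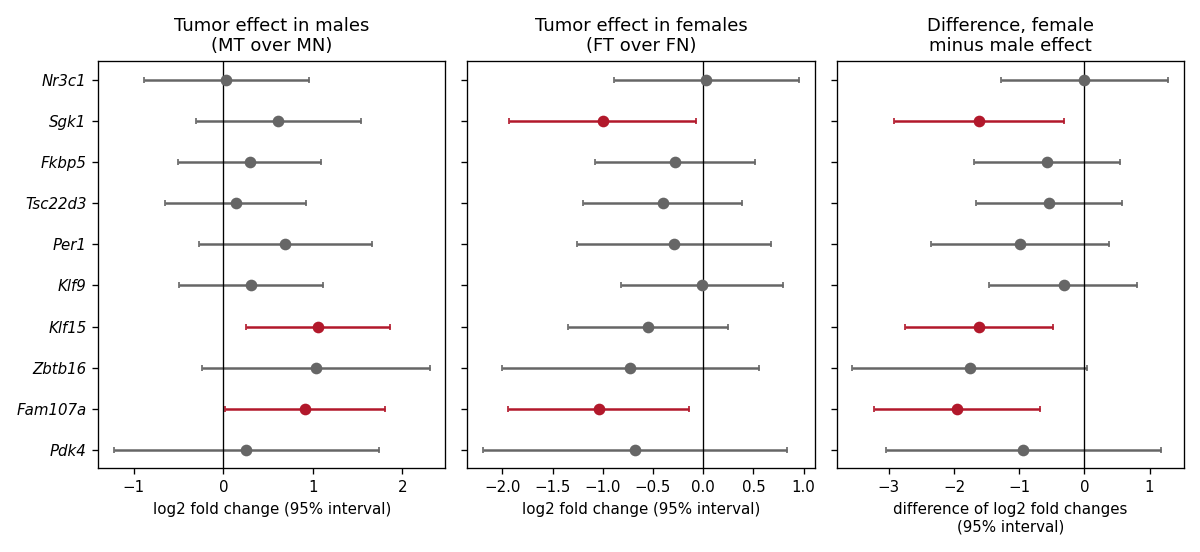
Log2 fold change of each gene by the tumor in males (left) and females (middle), and the female minus the male effect (right), from edgeR over 12 libraries; points are estimates, bars are 95% intervals and red marks an unadjusted p under 0.05. The horizontal axes differ between panels; the male estimates all lie above 0, and 9 of the 10 female estimates lie below it, with Klf9 at -0.01.

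The same comparison was made in females. Sgk1 and Fam107a fell in FT against FN at an unadjusted p under 0.05, which was 2 of the 10 genes, against 3.82% of all genes tested in either direction and 0.643% downward. Sgk1 went from 88.8 ± 49.6 to 41.9 ± 26.0 CPM, with a log2 fold change of -1.0 (SE 0.44, 95% interval -1.93 to -0.07). Fam107a went from 21.2 ± 8.73 to 9.69 ± 4.51 CPM, with a log2 fold change of -1.04 (SE 0.42, 95% interval -1.94 to -0.14). Neither passed adjustment by edgeR (adjusted p of 0.994 for both). The libraries of FN and FT overlapped for each of the 10, where 1.22% of all genes tested had every FT library higher and 1.26% every FT library lower. Of the 10 log2 fold changes 1 was above 0, and the median was -0.48, against 44.4% above 0 and a median of -0.06 for all genes tested.

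The female result depended on which libraries were counted. In 10 libraries, leaving out FN replicate 2 and FT replicate 2, 3 of the 10 genes had an unadjusted p under 0.05, against 14.7% of all genes tested. Sgk1 (-1.11, SE 0.31) and Fam107a (-1.12, SE 0.39) were lower, and Klf9 (0.54, SE 0.22) was higher. Both lower genes had every FT library below every FN library there, as 25.7% of all genes tested did. Over the 9, Sgk1 was lower in FT replicate 1 than in FN, with a log2 fold change of -0.71 (SE 0.23), and Klf9 was higher, at 0.45 (SE 0.18), both at an unadjusted p under 0.05, whereas Fam107a missed it at -0.82 (SE 0.42). These 2 of 10 calls stand beside 4.66% of all genes tested, and 3 of the 10 log2 fold changes were then above 0, with a median of -0.24. Pdk4 went from -0.68 (SE 0.71) over the 12 libraries to 0.39 (SE 0.56) over the 9, and Zbtb16 from -0.73 (SE 0.60) to 0.03 (SE 0.48), none of which passed. Leaving out 1 library at a time, neither Sgk1 nor Fam107a passed without FN replicate 1, FN replicate 3, FT replicate 2 or FT replicate 3. Both passed without FN replicate 2 or FT replicate 1, where 14.1% and 16.1% of all genes tested did, and without any 1 male library. Without FT replicate 2 the log2 fold change of Sgk1 was -0.79 and that of Fam107a -0.92.

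In the fits without FT replicate 3, FN replicate 1 or FN replicate 3, Sgk1 lay at -0.85, -0.82 and -0.76, and Fam107a at -0.91, -0.91 and -0.92. With FN and FT fitted alone no member had an unadjusted p under 0.05, against 1.19% of all genes tested. The lowest female libraries for Sgk1 and Fam107a, which were FN replicate 2, FT replicate 2 and FT replicate 3, were those with the most reads mapped to several places, and the part of library quality in these values was not tested. Macrophage markers summed to 179 to 409 CPM in FN and 247 to 535 CPM in FT, which overlapped. Of the 10 endothelial markers 1 had a log2 fold change above 0 in FT over FN, with a median of -0.74, and 0 did over the 9 libraries, with a median of -0.42. None of them had an unadjusted p under 0.05 in either fit, and their part in the values of the targets was not tested.

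Whether the tumor effect differed between the sexes was tested directly. Fam107a (difference of log2 fold changes, female minus male, -1.95, SE 0.59), Klf15 (-1.62, SE 0.53) and Sgk1 (-1.62, SE 0.61) each had an unadjusted p under 0.05, which was 3 of 10 genes, against 1.47% of all genes tested in either direction and 0.477% below 0. None passed adjustment by edgeR (adjusted p of 1.00). All 10 differences were below 0, with a median of -0.96, against 44.7% above 0 and a median of -0.07 for all genes tested, and the endothelial markers had 1 of 10 above 0 with a median of -1.05. The count of the members above 0 was 1 with DESeq2, with its size factors in edgeR and in 10 libraries. It was also 1 without MN replicate 1, MT replicate 3, FT replicate 1 or FT replicate 3, and 2 with limma-voom or without FN replicate 2. Zbtb16 was at -1.76 (95% interval -3.56 to 0.05). Nr3c1 itself was at 0.00 (95% interval -1.29 to 1.28).

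With FN replicate 2, FT replicate 2 and FT replicate 3 left out, the difference was again below 0 at an unadjusted p under 0.05 for Sgk1 (-1.32, SE 0.27), Klf15 (-1.30, SE 0.37) and Fam107a (-1.72, SE 0.51), and also for Per1 (-0.78, SE 0.28), 4 of 10 genes against 3.1% of all genes tested. Klf9 (0.14) and Pdk4 (0.13) were above 0 there, and the median of the 10 was -0.69. The female effect in that fit comes from FT replicate 1 alone. Without FN replicate 3 the difference of Sgk1 was -1.38 and missed that threshold, and Klf15 and Fam107a kept an unadjusted p under 0.05 in each fit that left out 1 library.

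**Figure D3:**
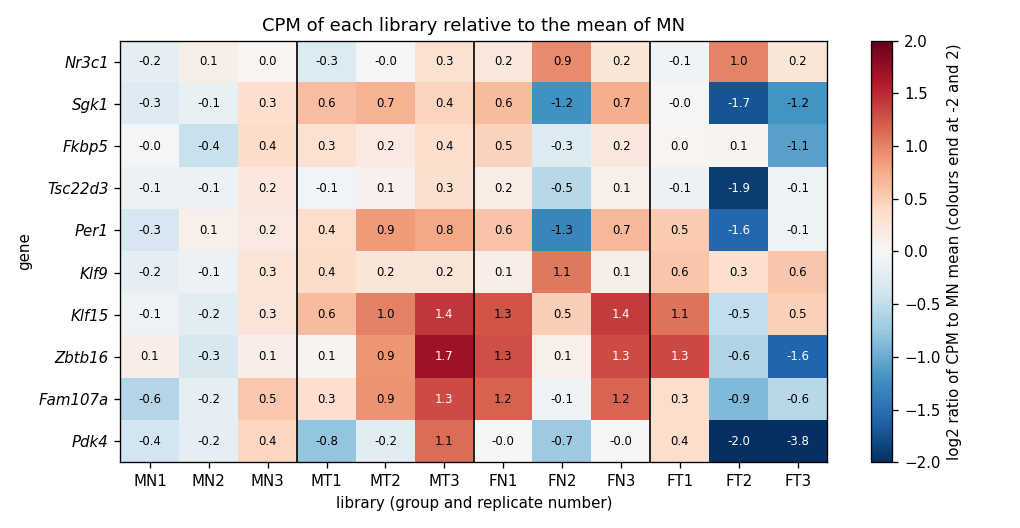
Log2 ratio of the CPM of each gene (rows) in each library (columns) to the mean of the 3 MN libraries, with the ratio printed in each cell and colours that end at -2 and 2. FN replicate 1, FN replicate 3 and the MT libraries are mostly above 0, whereas FT replicate 2 and FT replicate 3 each have 2 of 9 targets above 0.

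Library by library, the targets did not move as 1 block with the label. Of the 9 targets, 7, 8 and 9 were above the mean of MN in the 3 MT libraries, with median log2 ratios of 0.34, 0.70 and 0.78. MN replicate 3 had all 9 above that mean, at a median of 0.28, whereas MN replicates 1 and 2 had 1 each. FN replicates 1 and 3 had 8 each, at medians of 0.57 and 0.67, and FT replicate 1 had 7, at 0.35. FN replicate 2 had 3 at a median of -0.28, FT replicate 2 had 2 at -0.88 and FT replicate 3 had 2 at -0.55. The lowest ratio of all was Pdk4 in FT replicate 3, at -3.85.

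The sexes were compared without tumor and with it, leaving out genes on X and Y, so that 9 of the 10 genes entered. In normal mice Klf15 and Fam107a were higher in females at an unadjusted p under 0.05, 2 of 9 genes, against 5.57% of all genes tested in either direction and 5.21% upward. Klf15 was at 18.4 ± 5.61 CPM in FN and 8.58 ± 1.55 CPM in MN (log2 fold change 1.16, SE 0.38). Fam107a was at 21.2 ± 8.73 and 11.6 ± 4.79 CPM (0.91, SE 0.42). Neither passed adjustment by edgeR in the 12 libraries (adjusted p of 0.809 for both). Klf15 and Nr3c1 did not overlap between FN and MN, 2 of 9 genes against 9.66% of all genes tested. This comparison shares the MN libraries with the male tumor comparison and the FN libraries with the female one.

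Over the 9 libraries, where FN holds replicates 1 and 3, 5 of 9 genes were higher in FN than in MN at an unadjusted p under 0.05, against 8.66% of all genes tested. Klf15 passed adjustment by edgeR, with a log2 fold change of 1.27 (SE 0.23, adjusted p = 0.0404). The others were Sgk1 at 0.63 (SE 0.16), Fam107a at 1.11 (SE 0.30), Zbtb16 at 1.25 (SE 0.37) and Per1 at 0.56 (SE 0.17). Macrophage markers summed to 26.6 to 39.4 CPM in MN and to 409 and 179 CPM in FN replicates 1 and 3. Endothelial markers summed to 454 to 1058 CPM in MN and to 1376 and 1409 CPM in the same FN libraries, so that neither list overlapped there. Satellite glia markers summed to 8474 and 8403 CPM in them, against 4611 to 5363 CPM in MN. Pericyte and smooth muscle, myelinating Schwann and fibroblast markers were also higher in both FN libraries than in any MN library. Sensory neuron markers were lower, at 20233 and 21242 CPM against 22116 to 23870 CPM in MN. The part of these cell types in the result was not tested. Fam107a missed the threshold in the 12 libraries without MN replicate 1 (0.68), MN replicate 2 (0.83), FN replicate 1 (0.77), FN replicate 3 (0.78) or any of the 3 MT libraries. Klf15 kept an unadjusted p under 0.05 in each of these fits.

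Between tumor-bearing mice Sgk1 and Fam107a were lower in females, 2 of 9 genes at an unadjusted p under 0.05, against 12.1% of all genes tested in either direction and 2.09% downward. Sgk1 was at 41.9 ± 26.0 CPM in FT and 110 ± 9.68 CPM in MT (log2 fold change -1.32, SE 0.44). Fam107a was at 9.69 ± 4.51 and 21.8 ± 7.03 CPM (-1.04, SE 0.42). Neither passed adjustment by edgeR (adjusted p of 0.331 and 0.355). Sgk1 and Fkbp5 were lower in each FT library than in any MT library, 2 of 9 genes against 9.61% of all genes tested.

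Over the 9 libraries Sgk1 was the 1 gene of the 9 with an unadjusted p under 0.05, at -0.69 (SE 0.22), against 4.64% of all genes tested, and it kept that threshold in each fit that left out 1 library. Fam107a was there at -0.61 (SE 0.40), and it also missed the threshold without MT replicate 2, MT replicate 3, FT replicate 2 or FT replicate 3. Leaving out FT replicate 1 instead raised the count to 6 of 9 genes, against 29.2% of all genes tested, and 2 of them passed adjustment by edgeR, against 5.55%. The X-linked Tsc22d3 was compared in a fit that kept those genes and had a log2 fold change of 0.01 (SE 0.37) in FN over MN and -0.53 (SE 0.37) in FT over MT.

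Lists of related genes were read in the same fits, and no gene of the 6 lists below passed adjustment by edgeR over the 12 libraries in any of the 5 comparisons. The lists were chosen with earlier results of these data known. The study had already called several of their genes from the same data, so the counts below are not independent of it. The shares of all genes tested given above for each comparison apply to these lists as well. Of 11 chaperones and coregulators of the receptor none had an unadjusted p under 0.05 in either tumor comparison over the 12 libraries, where their median log2 fold change was -0.10 in males and 0.32 in females. Over the 9 libraries 2 were higher and 1, the mineralocorticoid receptor gene Nr3c2 (-2.17), was lower in FT against FN at that threshold. Hsp90ab1, the constitutive cytoplasmic HSP90, was at 3902 ± 115 CPM in MN, 3722 ± 181 in MT, 3462 ± 182 in FN and 4037 ± 685 in FT. Fkbp4, the co-chaperone that competes with Fkbp5 for the receptor, was at 666 ± 16, 586 ± 60.4, 489 ± 130 and 520 ± 203 CPM. Between the sexes over the 12 libraries Bag1, a co-chaperone of HSP70, was higher in FN than in MN (log2 fold change 1.87). Ncor1, a corepressor, was higher in FT than in MT (1.21), both at that threshold. Bag1 varied widely within FN, at 219 ± 248 CPM, and Ncor1 within FT, at 101 ± 71.3 CPM. Over the 9 libraries the median log2 fold change of the 11 was -0.17 in FN over MN and -0.11 in FT over MT.

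Of 7 genes for the metabolism and transport of corticosterone 4 had enough reads to be tested, and none had an unadjusted p under 0.05 in any comparison over the 12 libraries. Over the 9 libraries 5 were tested, and Abcb1b, a close paralog of Abcb1a whose reads the counting could split with it, was lower in FT than in FN at that threshold (log2 fold change -2.26, against 1.18 over the 12). The most abundant was Abcb1a, an efflux pump of the blood vessel wall, at 26.2 ± 10.9 CPM in MN, 34.6 ± 24.7 in MT, 42.9 ± 15.1 in FN and 39.3 ± 25.4 in FT. Srd5a1, a steroid reductase, was at 10.0 ± 0.743, 7.88 ± 1.20, 9.09 ± 1.60 and 8.28 ± 2.04 CPM.

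A further 20 genes that glucocorticoids induce in many tissues were listed apart from the 9 targets. The study had already listed Cebpd, Zfp36, Mt1, Mt2, Anxa1 and Usp2 among them as raised in MT over MN. Counts of this list in that comparison are therefore no independent evidence. In MT over MN 18 of the 20 had a log2 fold change above 0, with a median of 0.60, and none had an unadjusted p under 0.05 in the 12 libraries by edgeR. Over the 9 libraries 11 of the 20 rose at that threshold and none fell, against 571 higher and 467 lower of 14320 genes tested, and none of the 20 passed adjustment. Cebpd, a transcription factor of the acute response, rose by a log2 fold change of 0.77 in those libraries. Mt1, a metal-binding metallothionein, rose by 0.63, and Zfp36, which destabilizes cytokine transcripts, by 0.68. Nfkbia, the inhibitor of NF-kappaB, rose by 0.59.

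In FT against FN the list had a median log2 fold change of -0.45, with 5 of 20 above 0, and at an unadjusted p under 0.05 it had 3 genes lower and 1 higher. Lcn2, which binds bacterial iron carriers, fell from 121 ± 130 to 28.1 ± 19.0 CPM (log2 fold change -2.29). Plin4, a coat protein of lipid droplets, fell from 9.99 ± 1.44 to 2.48 ± 1.58 CPM (-1.96), and Angptl4, an inhibitor of lipoprotein lipase, from 75.2 ± 61.0 to 30.4 ± 14.2 CPM (-1.41). Irs2, an adaptor of the insulin receptor, was higher, at 309 ± 472 CPM in FT and 44.9 ± 34.9 CPM in FN (2.97), with an SD above its mean in FT. In the 9 libraries none of the 20 had an unadjusted p under 0.05 in this comparison and the median was -0.04.

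The difference between the sexes in the tumor effect was below 0 at an unadjusted p under 0.05 for Lcn2 (-3.55), Plin4 (-2.58) and Sult1a1, a sulfotransferase (-1.42), and in the 9 libraries for 5 of the 20. In FN over MN 19 of the 20 were above 0, with a median log2 fold change of 1.06, and 8 were higher at that threshold, against 5.21% of all genes tested. They were led by Sult1a1 (1.72), Cebpd (1.91), Lcn2 (2.60), Usp2 (1.18), Nfkbia (1.57) and Mt1 (2.23). The list summed to 4692 CPM in FN replicate 2 and to 1993 and 2035 CPM in the other FN libraries. In FN Mt1 was at 765 ± 762 CPM and Lcn2 at 121 ± 130 CPM. In the 9 libraries the median log2 fold change was 0.59. In FT over MT Irs2 (3.57), Mt1 (2.66), Mt2 (2.61) and Usp2 (0.85) were higher and Errfi1 (-1.12) and Plin4 (-1.52) lower at that threshold, and none of the 20 was in the 9 libraries.

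Genes of inflammation that glucocorticoids repress numbered 8. Of these, 7 had a log2 fold change above 0 in MT over MN, with a median of 0.60, and none had an unadjusted p under 0.05 in the 12 libraries. In FT over FN 5 of 8 were above 0 in the 12 libraries, with a median of 0.50 and none at that threshold. Over the 9 all 8 were above 0 with a median of 1.32, and the cytokine gene Il6 (1.33) and Icam1 (1.45) were higher at an unadjusted p under 0.05. Icam1, an adhesion molecule of vessel walls, was at 25.6 ± 16.1 CPM in MN, 40.1 ± 18.6 in MT, 21.0 ± 11.7 in FN and 34.3 ± 36.6 in FT. Il1b, a cytokine of macrophages, was at 3.73 ± 1.07 CPM in MN and 16.8 ± 11.4 CPM in FN (log2 fold change 2.37, unadjusted p under 0.05), beside the higher macrophage markers in FN. Ccl2, a chemokine that draws monocytes, was also higher in FN at that threshold (1.32), as Il1b was in FT over MT (2.01).

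Per1 belongs to the clock as well, and 14 other clock genes were followed beside it. In MT over MN 1 of 14 rose at an unadjusted p under 0.05, Ciart, a repressor of the clock activators, from 0.959 ± 0.420 to 3.36 ± 0.868 CPM (log2 fold change 1.83). Bhlhe40, another repressor, was at 51.6 ± 4.24 CPM in MN and 82.5 ± 12.1 CPM in MT, and it passed in the 9 libraries (0.70), where 5 of 14 rose. In FT against FN no clock gene had an unadjusted p under 0.05 in the 12 libraries, whereas Bhlhe41, a repressor related to Bhlhe40, was higher over the 9 (0.94). Over the 12 the difference between the sexes was below 0 for Ciart (-2.0). In FN over MN 4 of 14 were higher, Ciart (1.92), Dbp (1.51), Hlf (1.82) and Per3 (1.27), and 8 of 14 were in the 9 libraries. Dbp, an output factor of the clock, was also higher in FT than in MT (2.12), whereas Cry2 was lower there (-1.19). The hour at which mice were killed was not given in the sources used here, so its part in the clock genes and in Per1 was not tested.

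The 12 immediate early genes, which cells switch on within minutes of a stimulus, including tissue dissociation, gave a like picture. All 12 had a log2 fold change above 0 in MT over MN, with a median of 0.41, and none had an unadjusted p under 0.05 in the 12 libraries by edgeR, against 7 in the 9 libraries. Fos was at 287 ± 64.6 CPM in MN, 443 ± 59.7 in MT, 550 ± 60.0 in FN and 556 ± 250 in FT, and Jun at 444 ± 46.4, 458 ± 47.9, 439 ± 70.8 and 416 ± 110 CPM. In FT against FN the median was -0.12, none had an unadjusted p under 0.05, and 2 of 12 were above 0. The difference between the sexes in the tumor effect was above 0 for 0 of 12, with a median of -0.49 and none at that threshold in the 12 libraries, and over the 9 it was below 0 at that threshold for 6 of 12. In FN over MN 6 of 12 were higher at that threshold over the 12 libraries, against 5.21% of all genes tested. These were Ier2 (1.36), Ier3 (1.43), Fos (1.05), Btg2 (0.89), Junb (0.89) and Jund (2.39). In FT over MT Jund was higher (2.13), 1 of 12 against 9.96% of all genes tested. Jund had an SD above its mean in both female groups, at 42.8 ± 53.9 CPM in FN and 35.5 ± 40.0 CPM in FT. The part of this response in the levels of Sgk1, Per1 and the other targets was not tested.

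**Figure D4:**
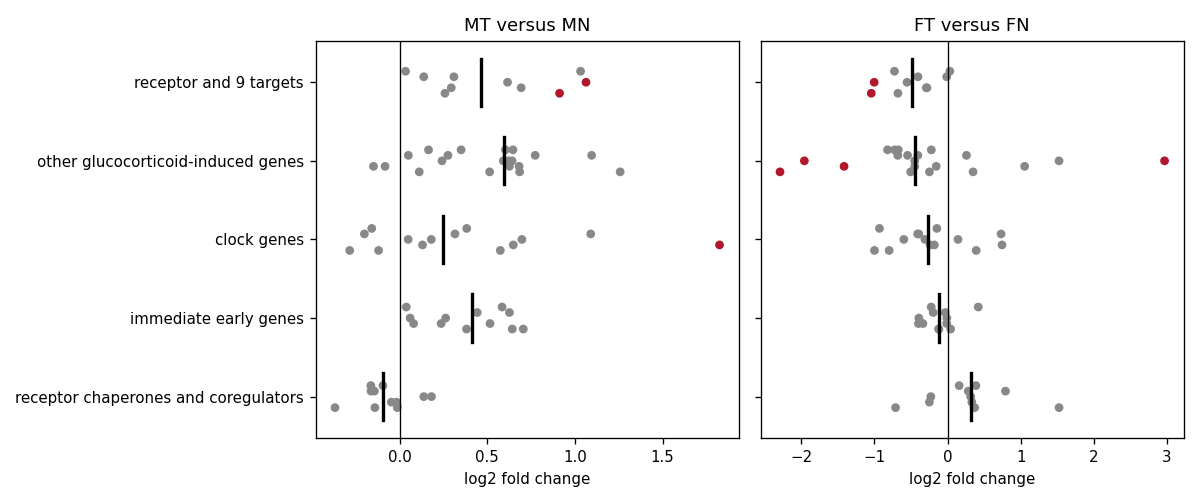
Log2 fold change of every tested gene of 5 lists (rows) in MT versus MN (left) and FT versus FN (right) from edgeR over 12 libraries; each point is a gene, red marks an unadjusted p under 0.05 and the black line is the median of the list. The horizontal axes differ; the medians of the receptor and its targets, the further induced genes, the clock genes and the immediate early genes are above 0 on the left and below 0 on the right.

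For 3 genes the most similar patterns over the 12 libraries were sought, by the mean absolute difference between log2 CPM values that had each been centred on the mean of the gene. Nr3c1 was closest to Adck5 (0.116), Casp8ap2 (0.12) and Mknk2 (0.129), against a median of 0.545 over all genes. Sgk1 was closest to Csrnp1 (0.177), Zfp143 (0.184) and Irgm2 (0.19), against a median of 0.653. Among the members Per1 was nearest to Sgk1, at 0.269 and rank 40. Fkbp5 was closest to Zfp182 (0.0936), Vps54 (0.144) and Flrt2 (0.146), against a median of 0.519. The distance of Nr3c1 to Sgk1 was 0.892, above its median over all genes, so receptor transcript and this target did not vary alike over these libraries. All libraries share the pull of the 3 that stand apart, which such distances take in.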

How the data were processed

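RNA of sorted WGA-positive cells was sequenced from 12 samples. The authors made SMART-seq2 libraries, read 50 bases from one end, aligned them to mm9 with TopHat2 and deposited whole read counts per gene from HTSeq, without normalization. Versions, annotation and strand setting were not given in the sources used here. The submitters' processing notes also name CASAVA 1.8.2 and SAMtools. Rows without a gene, 76.3% to 88.8% of all reads per library, were left out, and CPM used reads on genes as the total. WGA was 1% by the methods and 0.5% by the labels.

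RPKM, positions and motif matches used GENCODE M1 on mm9, which matched 21627 of 22609 symbols. Counts were fitted with edgeR 4.0.16 (R 4.3.3), with TMM, filterByExpr (minimum count 10, minimum total 15), 4 groups in 1 quasi-likelihood fit of 12 libraries, and Benjamini-Hochberg adjustment over all genes tested (13835, or 13360 without X and Y genes for the 2 sex comparisons). A gene was called at an unadjusted p under 0.05, the threshold of the study, or at an adjusted p under 0.05. The 95% intervals come from the same fit. The fits were tested on simulated data.

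The alternatives were DESeq2 1.42.0, its size factors, limma-voom (limma 3.58.1), no low-count filter, only the 2 groups compared, a replicate block, each library left out, and 10 or 9 libraries. Counts for the lists in 9 libraries were added after seeing the data. The members and lists were chosen with earlier results of these data known. Named beside the members were the list genes with an unadjusted p under 0.05 in the comparison discussed (at most 6 per list), otherwise the 2 most abundant; those named from the 9 libraries were chosen after their values were seen. Figures used matplotlib 3.10.9.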

Additional observations from a re-analysis of the deposited data

Results flagged for a closer look

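The tumor effect differed between the sexes for 3 of the 10 genes by the test of the difference itself, at an unadjusted p under 0.05 and without passing adjustment by edgeR. The difference of log2 fold changes, female minus male, was -1.617 for Sgk1, -1.616 for Klf15 and -1.953 for Fam107a. The mean CPM of Sgk1 went from 73.1 to 110 in males and from 88.8 to 41.9 in females, that of Klf15 from 8.58 to 17.8 and from 18.4 to 12.1, and that of Fam107a from 11.6 to 21.8 and from 21.2 to 9.69. In the 9 libraries these differences were -1.32, -1.30 and -1.72.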

How the results depend on the processing

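For the 11 member fold changes with an unadjusted p under 0.05, all 221 values under the 21 alternative settings kept their direction, and none reversed. These 11 were picked for lying off 0 and were refitted on mostly the same libraries, so a reversal was unlikely from the start. Many missed the threshold in some settings, Fam107a in FN over MN most often, in 9 of 21. Members that were not picked did change direction, such as Pdk4 and Zbtb16 in FT over FN. All 40 group means moved by less than 1 SD under TMM scaling. Counts of members at an unadjusted p under 0.05, for MT over MN, FT over FN, the difference between the sexes, FN over MN and FT over MT in that order, were 2, 2, 3, 2 and 2, where 0.426%, 3.82%, 1.47%, 5.57% and 12.1% of all genes tested passed in either direction. They were 6, 1, 5, 6 and 1 with limma-voom (11.3%, 4.08%, 4.77%, 21.1% and 9.02% of all genes) and 1, 2, 4, 1 and 2 with no filter on low counts (0.691%, 4.12%, 2.16%, 5.08% and 10.8%). They were 4, 3, 5, 4 and 3 in 10 libraries (2.28%, 14.7%, 5.87%, 6.08% and 22.5%) and 6, 2, 4, 5 and 1 in 9 libraries (7.25%, 4.66%, 5.1%, 15.2% and 8.27%). With only the 2 groups compared they were 6, 0, 3 and 2 (6.92%, 1.19%, 5.8% and 9.59%), without the difference. DESeq2 gave 2, 2, 4, 2 and 2 (0.503%, 4.97%, 2.06%, 7.36% and 15.1%). Leaving out 1 library gave ranges of 0 to 2, 0 to 4, 2 to 5, 1 to 2 and 1 to 6. The shares of all genes in those fits were 0.27% to 0.984%, 1.77% to 16.1%, 0.913% to 8.0%, 1.91% to 10.2% and 5.69% to 29.2%. Members with an adjusted p under 0.05 numbered 0 in each comparison by edgeR, against 3 for MT over MN and 4 for FN over MN with limma-voom (0.34% and 5.99% of all genes), 1 for FN over MN in 9 libraries (0.391%), and 0 to 2 for FT over MT when 1 library was left out. The cause of these shifts was not tested.

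Same-numbered samples had correlations of their deviations from -0.35 to 0.57, so the numbers were not taken as pairs. With the replicate block the counts were 2, 2, 3, 1 and 2 (0.304%, 2.46%, 1.03%, 3.82% and 11.7% of all genes). Fam107a in FN over MN was the call lost (log2 fold change 0.91). Low counts limit Zbtb16 and Pdk4 most, which fell to 11 and 7 reads (1.53 and 0.976 CPM) in FT replicate 3. That library had 7171648 reads on genes and was not the shallowest.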
